A study of Drosophila melanogaster with 2 samples.

Results

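The regions described here are the 500 autosomal single-gene promoters of Drosophila melanogaster at which the summit of a CG42726-eGFP binding region lay at or downstream of the transcription start. They were taken from the 2752 regions that passed between the biological replicates of a chromatin immunoprecipitation and sequencing (ChIP-seq) experiment, called the main list. A region was a member when its summit lay on 2L, 2R, 3L, 3R or 4, when starts of exactly 1 protein-coding gene lay within 500 bp, and when the summit lay at the nearest of that gene's starts or downstream of it on the gene's strand. The 500 regions lay at 481 genes. The closest counterpart was the set of 639 regions, at 615 genes, chosen by the same rule with the summit upstream. A further 547 autosomal regions had starts of several coding genes within 500 bp, 636 had none, and 430 lay on X or unplaced sequence. Chromatin came from whole embryos of 0 to 24 hours of a transgenic line in which the CG42726 protein is fused to enhanced green fluorescent protein (eGFP). The fusion was pulled down with an antibody to GFP, and sonication gave a labelled size range of 200 to 800 (no unit stated). The series holds 1 group of 2 biological replicates, all carrying the tag, and an untagged control was not analysed here. Whole embryos mix all cell types of all stages in this window, and the labels do not say whether the replicates were separate collections. The deposited lists carry a signal per region but no counts of reads, and sequencing depth is therefore unknown. Regions are not replicates of a condition and there is no second group, so no test was run. Values are repeated in each replicate's own list, and the intervals beside shares are 95% Clopper-Pearson (exact binomial) ones, which cover counting error only.

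A core promoter is the stretch around the transcription start on which RNA polymerase II and its general factors assemble. In flies, many promoters of broadly expressed genes carry the DNA replication-related element (DRE) TATCGATA, which is bound by DREF, or the shorter CGATA, which is the core of sites of the insulator protein BEAF-32. Many developmentally regulated promoters carry instead an Initiator at the start, searched here by its core TCAGT, and GAGAG runs before it, which are bound by GAGA factor. CG42726 has no name beyond its gene number.

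The sequences below run from 90 bases before the start to its first 30 transcribed bases, on the strand of the gene, from the RefSeq assembly of the same build as the lists (dm6). The first 4 are the members with the highest signal on 2L, 3L and 3R that carried GAGAG before the start together with TCAGT within 10 bp of it, shown because this combination was more frequent among the members than among all starts. Capitals mark GAGAG on either strand (CTCTC on the opposite one) and TCAGT. The summits lay 14, 113, 4 and 55 bp after the start in the order shown, so those of Gli and FER lay beyond the printed bases. Tollo (chr3L:15235529-15235648, plus strand, signal 167) encodes a Toll-family receptor, Gli (chr2L:15762729-15762848, minus strand, signal 156.1) the septate junction protein Gliotactin, msi (chr3R:25516028-25516147, plus strand, signal 147.7) the RNA-binding protein Musashi, and FER (chr3R:9394517-9394636, minus strand, signal 144.5) a tyrosine kinase.
Tollo: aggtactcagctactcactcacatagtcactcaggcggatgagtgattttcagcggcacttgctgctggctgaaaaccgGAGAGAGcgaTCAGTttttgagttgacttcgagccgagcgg
Gli: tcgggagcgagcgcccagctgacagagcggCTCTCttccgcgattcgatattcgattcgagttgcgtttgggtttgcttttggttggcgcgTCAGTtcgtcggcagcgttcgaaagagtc
msi: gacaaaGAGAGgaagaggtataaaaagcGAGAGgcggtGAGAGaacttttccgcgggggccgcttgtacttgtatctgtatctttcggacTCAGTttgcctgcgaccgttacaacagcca
FER: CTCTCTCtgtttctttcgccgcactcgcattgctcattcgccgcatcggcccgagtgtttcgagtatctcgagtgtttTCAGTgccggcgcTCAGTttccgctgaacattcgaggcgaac

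The other 4 sequences are those of the members with the highest signal on the same arms that carried a CGATA in these bases, shown because 3 of them are among the 4 strongest members. Capitals mark CGATA on either strand (TATCG on the opposite one), so that a TATCGATA in capitals is a full DRE. The summits lay 18, 3, 29 and 0 bp after the start in the order shown, and the DRE of RpS30 lay on the other side of the start from its summit, where a further CGATA ran past the last printed base. Rpn10 (chr3L:21536910-21537029, plus strand, signal 337.6) encodes a ubiquitin receptor of the proteasome, RpS29 (chr3R:9777952-9778071, plus strand, signal 328.4) and RpS30 (chr3R:20850426-20850545, plus strand, signal 323.5) encode proteins of the small ribosomal subunit, and PGAP5 (chr2L:8198863-8198982, plus strand, signal 196.5) acts in the remodelling of GPI anchors.
Rpn10: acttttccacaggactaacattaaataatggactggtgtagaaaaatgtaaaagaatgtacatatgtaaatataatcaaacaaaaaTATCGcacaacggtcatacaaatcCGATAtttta
RpS29: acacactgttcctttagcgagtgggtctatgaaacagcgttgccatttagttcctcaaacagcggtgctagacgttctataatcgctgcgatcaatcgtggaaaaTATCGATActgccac
RpS30: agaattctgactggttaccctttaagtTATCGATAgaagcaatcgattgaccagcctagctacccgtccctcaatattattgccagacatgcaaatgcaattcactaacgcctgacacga
PGAP5: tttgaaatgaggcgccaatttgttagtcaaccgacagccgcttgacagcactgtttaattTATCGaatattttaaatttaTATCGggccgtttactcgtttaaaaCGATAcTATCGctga

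The 4 strongest members stood apart from the others. The signal given for each region is the authors' own value, which in the main list comes from the pooled reads of both replicates. OstDelta, the gene of a subunit of the oligosaccharyltransferase that glycosylates proteins, had a signal of 392.6 at a summit 50 bp downstream of its start (2R, 17766943 to 17767106). In the candidate lists of the separate replicates the same place had 283.4 in replicate 1 and 117.9 in replicate 2. Rpn10 had 337.6, with 219.6 in replicate 1 and 111.1 in replicate 2, at 18 bp. RpS29 had 328.4, with 162.8 and 172.5 in replicates 1 and 2, at 3 bp. RpS30 had 323.5, with 192.8 and 117.3, at 29 bp. These 4 ranked 69, 103, 107 and 111 in the main list, and every one had a CGATA within 50 bp of the summit. The fifth member, Sik3, had 198.5.

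Between signals of 198.5 and 167 lay the other 21 of the 25 strongest members, which were of mixed function. Some are general cell functions: Smg5 of nonsense-mediated mRNA decay (195.9), RpS7 of the small ribosomal subunit (195.1), alphaTub84B, an alpha tubulin (178.3), the ubiquitin-conjugating enzyme Ubc2 (170.4) and Atpalpha, the catalytic subunit of the sodium pump (169.2). Others act in signalling, the cytoskeleton or chromatin: the kinase Sik3 (198.5), the glial lectin glec (193.4), the myosin phosphatase subunit MYPT-75D (179.5), the nucleosome-destabilizing factor Ndf (177.3), the junction protein smash (172.5), the ArfGAP CenG1A (172.2), the phosphatidylinositol transfer protein vib (170.3), the Polycomb group gene Su(z)2 (168.5), the SUN-domain protein koi (167) and Tollo (167). The remaining 6 were PGAP5 (196.5), CG8036 (191.3), CG8617 (191.2), CG6420 (187.4), bc10 (186.6) and CG2926 (172.5). These 21 follow each other in the order of main-list signal, so their narrow range there comes from the choice. In the separate replicates alphaTub84B had 107.1 in replicate 1 and 76.0 in replicate 2, Smg5 had 131.9 and 67.2, and koi had 101.8 and 78.0. Of the 25, 22 had the summit within 50 bp of the start and 17 had a CGATA within 50 bp of the summit.

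Most member summits lay just inside the transcribed sequence. The median distance downstream of the start was 51.5 bp (interquartile range 26 to 89), 201 of 500 summits lay 20 to 60 bp downstream, and 390 (78%) lay within 100 bp. Upstream summits had a median distance of 47 bp on the other side. Classified on their own, the lists of the separate replicates gave a median downstream distance of 48 bp in replicate 1 (577 regions) and 40 bp in replicate 2 (218 regions). A tail of 50 members lay more than 200 bp into the gene, the farthest at 498 bp.

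**Figure D1:**
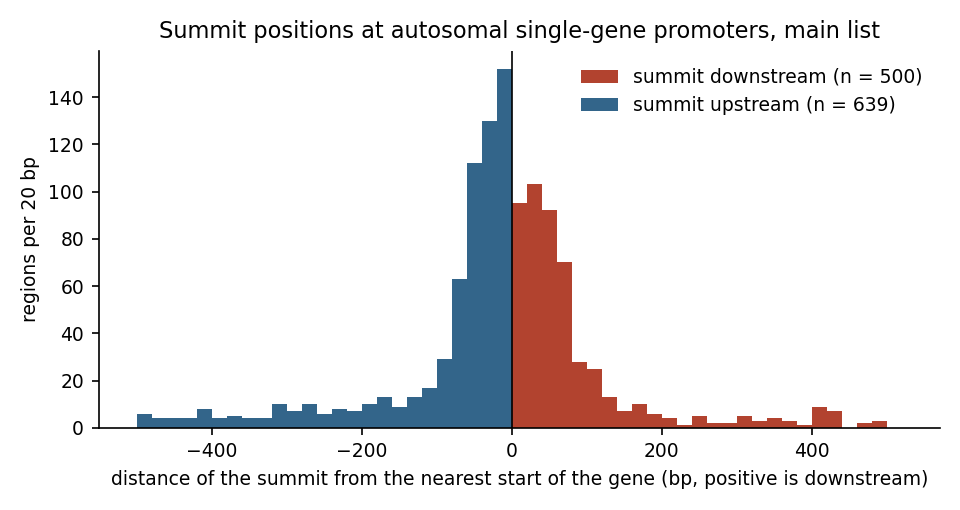
Number of regions of the main list per 20 bp (vertical axis) by distance of the summit from the nearest start of its gene in bp (horizontal axis, positive values downstream), for the 500 downstream and 639 upstream regions. Both sides peak next to the start and fall off beyond 100 bp.

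Because the side is a cut at the start itself, summits close to it could fall to either side. PGAP5 and CG31710 had the summit on the start and vib 1 bp downstream, while CG9135, CG10809 and CG1371 had it 1 bp upstream and were not members. In all 29 member summits lay within 5 bp of the start, against 32 upstream ones. At the other limit CG18659 (498 bp), Mob4 (487 bp) and RpS4 (487 bp) were the last members, and woc (502 bp), Prx6c (508 bp) and Fkbp12 (516 bp) lay just outside.

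Most summits fell on untranslated sequence at the start of the gene, which the rule favours because it keeps summits at or downstream of a start. No share was computed for other positions at the same distances. Of 500, 431 lay in a 5' untranslated exon (86.2%, 82.9 to 89.1), 46 in a coding exon (9.2%) and 23 in an intron (4.6%), and 444 lay before the start codon. The first exon held 466. The genes themselves were long. Their median length was 8141 bp, against 4282 bp for genes with an upstream summit and 2102 bp over all 11749 autosomal protein-coding genes. Of the 481 member genes, 211 were longer than 10 kb (43.9%), against 26% of genes with an upstream summit and 13.6% of all. The median length of the 5' untranslated region was 340.5, 209 and 116 bases in the same order. Genes with a single start were shorter in each set, and 45.1% of member genes had a single start, against 53.7% and 74.3%. Among genes with a single start the order of the lengths was the same, with medians of 5129, 2718 and 1726 bp.

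Some genes held several member regions, each at a different start or at different distances from one. Eip75B, an ecdysone-induced nuclear receptor gene with 7 starts, had 3, with signals of 143.5, 105.3 and 112.2 at 113, 172 and 335 bp from their starts. Gdap2 and milt, whose product links mitochondria to kinesin, also had 3 each, and 13 further genes had 2. These included shot, a giant cytoskeletal linker (117.4 and 113.1), kay, the fly Fos (141.3 and 91.3), Atpalpha (169.2 and 78.5) and BEAF-32 itself (142.8 and 115.3). The weakest regions of milt (5.8), Oda (2.2), Pdk (5.4) and Eip63E had signals under 50. All other regions at genes with several had more than 50. Of the 18 members under 50, 17 overlapped another region of the main list, so not all regions counted per gene were separate. A further region with an upstream summit lay at 35 of the member genes. Members were spread over the arms, with 122 on 2L, 144 on 2R, 112 on 3L, 122 on 3R and 0 on chromosome 4, where 2 upstream regions lay.

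The signal of the members was lower than that of regions with an upstream summit. Their median in the main list was 89.95 (interquartile range 75.3 to 115.5), against 120.1 (86.9 to 192) upstream, 115 at promoters of several genes and 102.4 over the whole list. The ratio of the medians, downstream over upstream, was 0.749 in the main list, 0.751 in the list of replicate 1 (54.95 against 73.1) and 0.787 in that of replicate 2 (51.8 against 65.9). The difference lay mostly at the high end. A signal of 200 or more was reached by 4 members (0.8%), against 147 upstream regions (23%) and 328 of all regions (11.9%). Narrower regions had higher signals throughout the list (median 315.4, against 97.6 at full width), and 495 members had the full width of 296 bp, the exceptions being OstDelta, Rpn10, RpS29, RpS30 and glec. Among regions of full width the ratio of medians was 0.828.

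**Figure D2:**
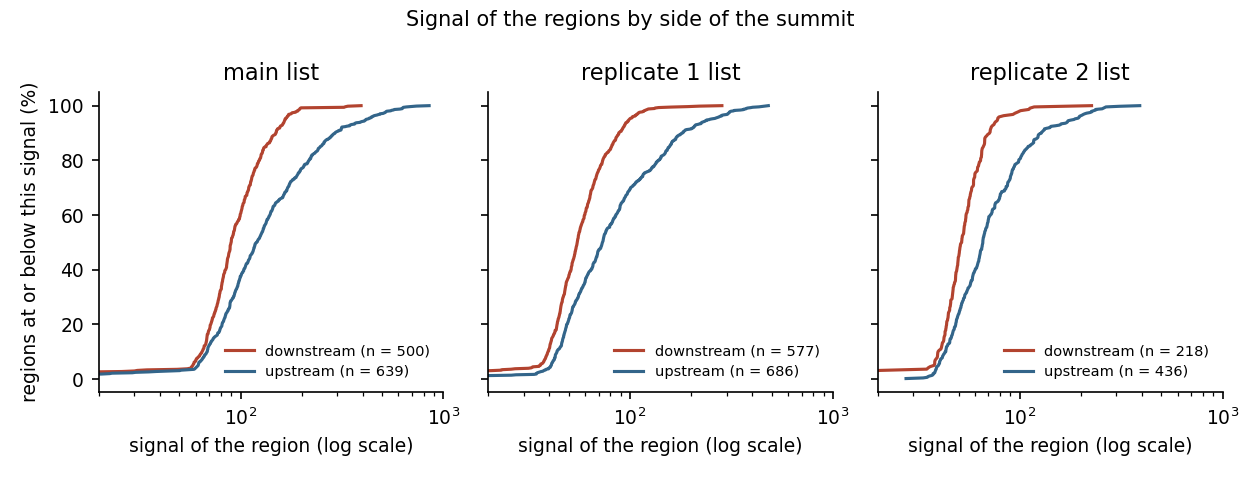
Share of regions in % (vertical axis) at or below a given signal (horizontal axis, log scale) for regions with the summit downstream and upstream, in the main list and in the separate lists of replicates 1 and 2. In every panel the downstream curve lies left of the upstream one in its upper part, with medians of 89.95 against 120.1, 54.95 against 73.1, and 51.8 against 65.9. Between 0 and 17 regions per curve lie outside the drawn range.

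Signal among the members was highest for summits on the start and lower farther in. Members with the summit 0 to 9 bp from the start had a median of 121.1 (n = 41), those at 10 to 49 bp 97.1 (n = 199), at 50 to 99 bp 93.3 (n = 148), at 100 to 199 bp 75.8 (n = 61) and at 200 to 500 bp 74.5 (n = 51). Upstream regions did not have this order, with 108.9, 140.3, 137.7, 91.2 and 97.1 over the same ranges of distance. The lowest signals belonged to members beside a stronger region. Of 18 members with a signal under 50, down to 2.2 at the second region of Oda, 17 overlapped another region of the main list, while over all members 23 did.

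Members were found less often than upstream regions in the lists of the separate replicates. A region of the replicate 1 list overlapped 348 of the 500 members (69.6%, 65.4 to 73.6), against 79.7% of upstream regions and a background of 72.1% over all 2752 regions. A region of the shorter replicate 2 list overlapped 200 members (40%, 35.7 to 44.4), against 63.7% of upstream regions and a background of 52.3%. Both lists held 166 members (33.2%), against 57.6% of upstream regions and 45.5% of all regions. In neither list were 118 members (23.6%), against 14.2% and 21.1%. The share found in the replicate lists followed the signal. Between signals of 120 and 200, 85.3% of 109 members and 85.5% of 173 upstream regions were in the replicate 2 list. Between 80 and 120 the shares were 37.9% of 224 members and 47.7% of 199 upstream regions. In the ranked candidate lists, which hold weaker regions too, 498 members had a candidate in replicate 1 (median signal 52.2) and 494 in replicate 2 (39.2). Of all 2752 regions, 2747 and 2733 had one. The median member stood in the top 1.7% of each ranked list, and the median of all regions in the top 1.39% and 1.29%. Regions of the main list had passed between the replicates, so that selection already favours a high candidate in each.

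The side of the summit was the same in both replicates at most promoters, less often for downstream than for upstream summits. With each replicate list classified on its own, 171 downstream regions of replicate 1 overlapped a region of replicate 2. Of the 169 that were again at a single-gene promoter, 132 were downstream in both (78.1%, 71.1 to 84.1). Upstream regions of replicate 1 kept their side in 331 of 365 cases (90.7%, 87.2 to 93.5). Starting from replicate 2, the counts were 129 of 162 downstream (79.6%, 72.6 to 85.5) and 328 of 364 upstream (90.1%). The summits of the first comparison differed by a median of 22 bp downstream and 13 bp upstream. Of downstream regions whose summit lay at least 25 bp from the start in the first list, wherever it lay in the second, 97 of 113 from replicate 1 (85.8%, 78 to 91.7) and 95 of 102 from replicate 2 (93.1%, 86.4 to 97.2) kept the side.

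**Figure D3:**
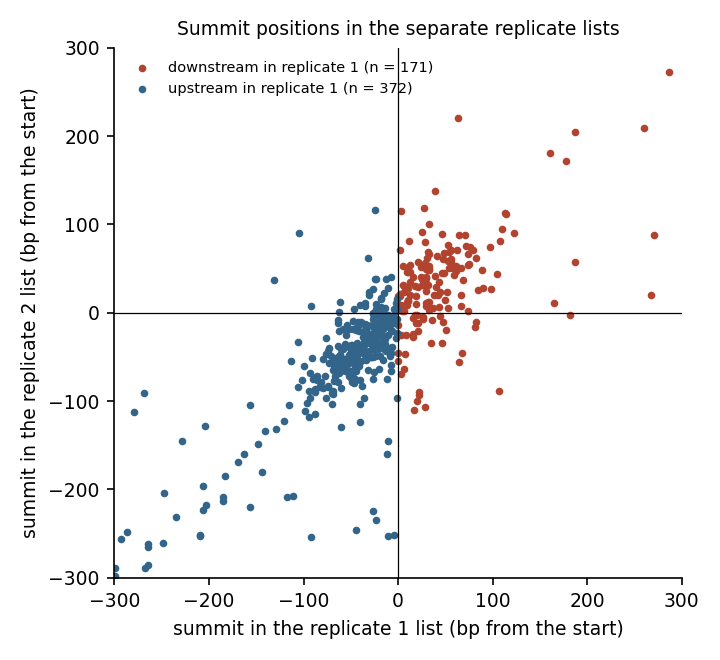
Position of the summit in bp from the start in the list of replicate 1 (horizontal axis) and of replicate 2 (vertical axis), for regions that overlap between the lists, coloured by the side in replicate 1 (171 downstream, 372 upstream; 3 and 18 of them lie outside the axes). Most points lie in the upper right and lower left of the plot, and most of the changes of side lie close to the start.

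CGATA, found at most upstream summits, was less frequent in the members, at a share between those of the backgrounds given below. Within 50 bp of the summit 101 of 500 members had it on either strand (20.2%, 16.8 to 24), against 60.4% of upstream regions (56.5 to 64.2) and 66.2% of promoters of several genes. Over all 16298 starts of autosomal coding genes, windows of the same length held it in 22.7% of cases. Windows shifted downstream by 52 bp, close to the members' median distance, held it in 15.6%, so that the members lay below one background and above the other. The full DRE, which contains CGATA, was at 17 member summits (3.4%, 1.99 to 5.39), against 20.8% upstream, 4.2% of all starts and 0.816% of the shifted windows. Counted from 100 bp before to 100 bp after the start, CGATA was in 37.6% of members, 67.6% of upstream regions and 36.1% of all starts. The nearest CGATA within 200 bp lay a median of 59 bp from the summit in the 250 members that had one, against 16 bp in 490 upstream regions. In the list of replicate 1 the shares at the summit were 24.1% downstream and 67.8% upstream, and in that of replicate 2 they were 31.2% and 62.6%.

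CGATA went with higher signal on both sides of the start. The 101 members with it at the summit had a median signal of 104.1 (78.8 to 150.3), against 88.8 (74.6 to 111.3) in the 399 without. Upstream regions had 158.6 with CGATA and 88.99 without. Without CGATA the 2 sets of regions thus had medians within 1 unit of each other. In the ranges of signal below 200 the members held CGATA less often. Below 80 it was at 15.95% of 163 member summits and 27.5% of 120 upstream summits. Between 80 and 120 it was at 14.3% of 224 member summits and 43.2% of 199 upstream summits, and between 120 and 200 at 35.8% of 109 and 74.6% of 173. At 200 and above it was at 4 of 4 member summits and 138 of 147 upstream summits. Members with CGATA had their summits closer to the start, at a median of 29 bp, against 57 bp in members without.

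**Figure D4:**
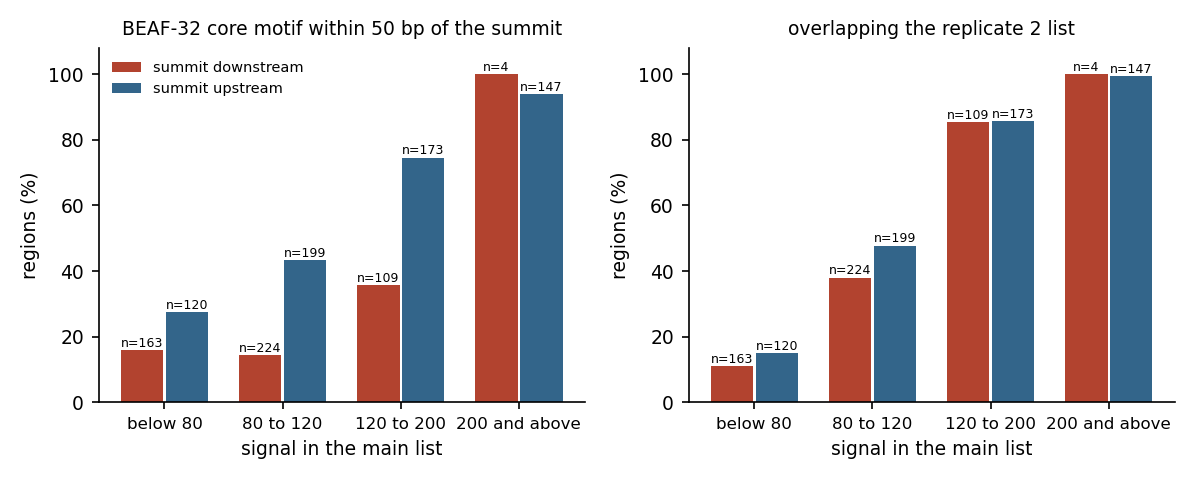
Share of regions in % with a CGATA (the BEAF-32 core motif) within 50 bp of the summit (left panel) and overlapping the replicate 2 list (right panel), by range of signal in the main list, for regions with the summit downstream and upstream; n is the number of regions behind each bar. In the range of 120 to 200 CGATA was at 35.8% of downstream and 74.6% of upstream summits, while 85.3% and 85.5% were in the replicate 2 list.

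GAGAG and the Initiator core were more frequent at the members' starts than at upstream ones, except among the weakest regions. Within 100 bp of the start 204 members had GAGAG on either strand (40.8%, 36.5 to 45.2), against 21.8% of upstream regions and 25% of all starts. Its matches lay mostly before the start. Between 100 and 50 bp before it, 23.4% of members had one, against 9.39% of upstream regions and 10.6% of all starts. TCAGT on the strand of the gene was within 100 bp of the start in 38.6% of members, 23.3% of upstream regions and 32.6% of all starts. It was within 10 bp of the start in 118 members (23.6%), against 9.86% upstream and 14.6% of all. GAGAG anywhere in the 100 bp before the start together with such a TCAGT, as in Tollo, Gli, msi and FER, was found in 64 members (12.8%), against 26 upstream regions (4.07%) and 4.33% of all starts. Below a signal of 80 the shares within 100 bp of the start were alike, with GAGAG in 33.7% of 163 members and 32.5% of 120 upstream regions and TCAGT in 33.7% and 34.2%. Between 80 and 120 GAGAG was in 46% of members and 25.1% of upstream regions and TCAGT in 43.3% and 26.6%, and between 120 and 200 GAGAG was in 42.2% and 18.5% and TCAGT in 36.7% and 17.9%. In the list of replicate 1 GAGAG was within 100 bp of the start in 44.4% of downstream and 20% of upstream regions, and in that of replicate 2 in 41.3% and 19.3%. TCAGT within 100 bp was in 38% and 22.9% in replicate 1, and in 36.2% and 20.4% in replicate 2. Within 50 bp of the summit, GAGAG was at 16.6% of members and 11.7% of upstream regions, against 12.7% of windows around all starts. TCAGT was there at 22.2% and 10.2%, against 25.5% of windows around all starts. Windows shifted downstream by 52 bp held GAGAG in 11.5% and TCAGT in 15.2%.

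**Figure D5:**
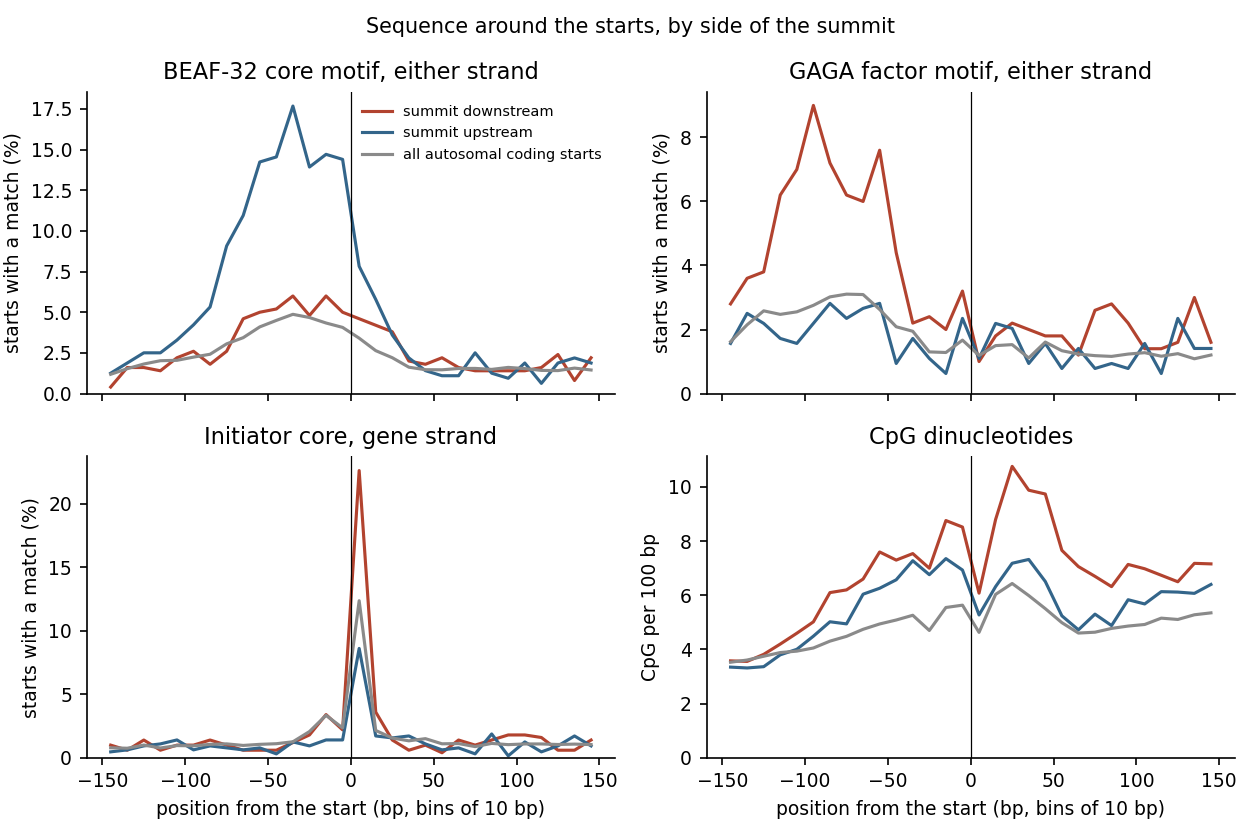
Share of starts in % with a match centred in each bin of 10 bp (first 3 panels) and the number of CpG dinucleotides per 100 bp (last panel), by position from the start in bp, for starts with the summit downstream, with the summit upstream and for all autosomal coding starts. The motifs are CGATA (BEAF-32 core), GAGAG (GAGA factor) and TCAGT (Initiator core). The downstream set peaks at 9% for GAGAG between 100 and 90 bp before the start, at 22.6% for TCAGT at the start and at 10.8 CpG per 100 bp between 20 and 30 bp after it, while for CGATA it stays at or below 6%.

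Members with GAGAG were at longer genes. Their genes had 13900 bp at the median (198 genes), against 6585 bp for members without (291 genes), and 57.1% against 35.7% were longer than 10 kb. Upstream regions had medians of 5914 bp with GAGAG and 4053 bp without. Of the 250 members above their median signal 48.4% had GAGAG (42.1 to 54.8), and of the other 250 33.2% did (27.4 to 39.4). The share did not rise through the ranges of signal given above, and 0 of the 4 members at 200 and above had it. Among upstream regions GAGAG went with lower signal, 95.4 with it and 127.5 without.

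For other core promoter sequences members and upstream regions lay closer together, while some differed from all starts. The core of Motif 1, GGTCACAC, bound by M1BP, lay within 100 bp of the start in 12.8% of members, 9.23% of upstream regions and 5.65% of all starts. The TATA box, TATAAA on the strand of the gene, was in 11% of members, 11.4% of upstream regions and 19.7% of all starts. CTTTT, the core of the TCT element of ribosomal protein genes, was in 30% of members, 33.2% upstream and 35% of all. Shares of the E-box CAGCTG were 15.2%, 14.6% and 13.8% in the same order, and those of the Motif 6 core GTATNTTT 10.6%, 8.14% and 9.35%. CAGGTAG, bound by the pioneer factor Zelda, was in 0 of 500 members, which allows a share of up to 0.6% at 3 counts (0.735% by the Clopper-Pearson interval), and in 0.626% of upstream regions and 1.09% of all starts. Repeats of CA (CACACACA) were in 5%, 4.85% and 3.68%, and runs of 8 A (AAAAAAAA) in 5.8%, 10.02% and 9.31%.

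The sequence under member summits was rich in G and C and in CpG. The 101 bases around the summit had a median of 49.5% G and C (44.6 to 54.5), against 45.5% (39.6 to 51.5) at upstream summits and 43.6% around all starts. CpG dinucleotides numbered 8.55 ± 3.01 in members, 6.28 ± 2.63 upstream and 5.48 ± 3.12 around all starts (SD over regions or starts). At the same distances before the start, on the side away from their summits, the members had 6.69 CpG and a median of 47.5% G and C. In the list of replicate 1 the medians at the summit were 48.5% downstream and 44.6% upstream, and in that of replicate 2 49.0% and 45.5%.

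By function the members were mixed. Over all autosomal protein-coding genes 4.09% (481 of 11749) had a member region and 5.23% one with an upstream summit. Among cytosolic ribosomal protein genes 5 of 78 (6.41%) were members, RpS29, RpS30, RpS7, RpS4 (78.6) and RpLP1 (34.5), against 14 with an upstream summit. Of 42 proteasome genes 2 were, Rpn10 and Prosalpha3 (13.3), and of 45 translation factor genes 3 were, eEF1alpha1 (128.4), eIF3b (76.4) and eIF3j (31.0), against 3 and 7 with an upstream summit. RpLP1, Prosalpha3 and eIF3j were among the 18 members with a signal under 50, of which 17 overlapped another region of the main list. The mitochondrial ribosome had 1 of 62, mRpS22 (68.1), against 2 with an upstream summit. Subunits of oxidative phosphorylation had 4 of 77, ND-13B (150.6) and ND-13A (70.9) of complex I and SdhC (59.0) and SdhB (54.6) of complex II, and 3 with an upstream summit. The rule leaves out promoters with starts of several coding genes. Regions at such promoters lay near 1081 of all 11749 genes. They lay near 18 cytosolic and 16 mitochondrial ribosomal, 9 proteasome, 8 translation factor and 15 oxidative phosphorylation genes.

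Genes of transcription and chromatin factors were also among them. Of 14 insulator protein genes 3 were members (21.4%): BEAF-32 with 142.8 at 418 bp and 115.3 at 11 bp, mod(mdg4) with 110.1 and CTCF with 108.4, and 1 further gene had an upstream summit. BEAF-32 had 102.5 in replicate 1 and 30.6 in replicate 2 at the first of these, and 61.2 and 79.7 at the second. Of 49 genes of RNA polymerase subunits and general factors 3 were, the TFIID subunit gene Taf4 (129.5), Polr2F (88.9) and Polr1E (71.6). MED14 (125.7) was the member among 23 Mediator genes, Mcm2 (72.6) among 22 replication genes, and Su(z)2 among 24 of the Polycomb and Trithorax groups. Of 19 nuclear receptor genes 2 were, the ecdysone-induced Eip75B (143.5) and Eip78C (118), against 3 with an upstream summit. Of 27 segmentation and Hox genes the pair-rule gene odd (88.8) was, against 5 with an upstream summit. Regions at promoters of several genes, outside the rule, lay near 6 insulator, 7 polymerase and general factor and 8 Mediator genes. They also lay near 3 replication, 2 Polycomb or Trithorax, 1 nuclear receptor and 0 segmentation or Hox genes.

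Genes of sensory and cuticle function had shares below the 4.09% of all genes. None of 154 chemoreceptor genes was a member, and 1 of 94 cuticle protein genes was (1.06%), Edg78E (65.2). The counts with an upstream summit were the same, 0 chemoreceptor genes and 1 cuticle protein gene. Regions at promoters of several genes lay near 1 gene of each list. Of 69 cytochrome P450 genes 2 were (2.9%), near the share of all genes, Cyp6a22 (81.0) and Cyp9f3 (79.3), and 0 had an upstream summit. Of 22 Rab GTPase genes Rab32 (86.6) and Rab5 of early endosomes (74.5) were members (9.09%, above the share of all genes). None had an upstream summit, and regions at promoters of several genes lay near 8. There were 0 members among 29 aminoacyl-tRNA synthetase, 31 vacuolar ATPase, 21 nucleoporin, 17 SNARE, 11 Sm and U1, 28 chaperone and 20 cyclin or cyclin-dependent kinase genes. Regions at promoters of several genes lay near 5, 4, 3, 4, 4, 2 and 0 of them, in the same order. In the cyclin list 5 genes had an upstream summit. With so few genes a list, a difference of 1 or 2 genes moves each share widely.

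Starts of non-coding genes lay near few regions on either side. A non-coding start lay within 500 bp of 30 member summits (6%, 4.08 to 8.46), against 57 upstream ones (8.92%, 6.83 to 11.4), with overlapping intervals. The class ncRNA was near 24 members (4.8%) and 33 upstream regions (5.16%). Genes of tRNAs made up 2 of these for members (0.4%, 0.0485 to 1.44) and 18 for upstream regions (2.82%, 1.68 to 4.42).

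The tagged gene itself was not a member. CG42726 (3R, 15348048 to 15350391, plus strand) had the nearest summit of the main list 2305 bp from its start, in a region of signal 67.1 (15350205 to 15350500) with no coding start within 500 bp. The next region, at 15351460 to 15351755, was the member at Tmtc4, with a signal of 64.3 at 383 bp and 34.4 and 31.5 in replicates 1 and 2.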

How the data were processed

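The deposited files are lists of regions from ChIP-seq of 2 biological replicates, on dm6 per the labels, with the irreproducible discovery rate as the criterion. Signal values are those the authors deposited per region. Their scale, the aligner and the peak caller are not stated in the labels or records used here. The summit, another deposited column, is an offset from the region's start. The main list holds regions that passed between the replicates, with region and signal taken from pooled reads. The list of pooled reads and the list and ranked candidates of each replicate were also used, and the other ranked lists were not. A control named in the file records was not analysed here.

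Starts came from the Ensembl annotation (release 115) and sequence from RefSeq, whose chromosome lengths exceeded every annotated and region end. Replicate signals are those of the overlapping ranked candidate with the nearest summit. Overlap meant at least 1 bp. Sequences (12) were counted within 50 bp of the summit or 100 bp of the start. Functions were tested on simulated data. Python 3.11.15, numpy 2.4.6, pandas 2.3.3, scipy 1.17.1 and matplotlib 3.10.9 were used.

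The members, 23 gene lists and sequences were chosen with earlier results of these data known. Named are the 25 members of highest signal, the 2 highest of each gene list, the 3 nearest to each limit of the rule and the 3 just outside, CG42726, and, for printed sequences, the highest members on 2L, 3L and 3R that carry the motif shown. Named with their values already seen are the other members of gene lists, the genes with several regions and the narrow regions. Alternatives included other lists, windows, starts, margins, widths and signal ranges. No test was run.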

Additional observations from a re-analysis of the deposited data

How the results depend on the processing

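Results were recomputed with each replicate's list, the pooled list, regions above the median signal, other windows, margins, start rules and overlaps, and, chosen after seeing the data, with moved background windows, a margin on the first list alone, genes with a single start and regions of full width. Of 71 recomputed values, 35 moved by less than the spread (1 SD between the replicates' lists, or the counting interval), 34 by more and 2 changed direction, and the cause was not tested. The share of single-gene promoter summits that lay downstream, 43.9%, became 55.2% with the most upstream start of each gene, and the CGATA share minus that of all starts, -2.47 points, became 4.57 with moved windows. The first share was 32% above the median signal and 33.3 to 45.7% in the replicates' lists. The median distance was 40 to 48 bp in the replicates' lists, 58 bp in the pooled list, 36 bp above the median signal, 43 and 58 bp with windows of 250 and 1000 bp, 126 bp with the most upstream start and 65 bp beyond 25 bp from the start. The ratio of median signals, 0.749, was 0.751 to 0.787 in the replicates' lists, 0.775 pooled, 0.796 at 1000 bp, 0.702 with the most upstream start, 0.692 at genes with a single start and 0.828 at full width. The CGATA share downstream minus upstream, -40.2 points, was -43.7 to -31.4 by replicate and -50.3 above the median signal. The GAGAG difference, 19.05 points, was 22.0 to 24.4 by replicate, 28.2 above the median signal, 13.8 with the most upstream start and 17.2 at full width. The TCAGT difference, 15.3 points, was 15.1 to 15.8 by replicate, 13.5 pooled, 20.5 above the median signal, 14.3 with the most upstream start, 17.6 at single starts and 14.0 at full width. Above the median signal 95.7% of members were in the replicate 1 list and 77.7% in the replicate 2 list. The side was kept in 91.8% (from replicate 1) and 95% (from replicate 2) of regions with both summits at least 25 bp from the start, a condition that also removes changes of side near it, and in 85.8% and 93.1% with the condition on the first list alone. No paired analysis was possible because there is 1 group. The lists hold no counts, so what depth limits is unknown.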

Other observations

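Words of 6 bases with CG were the ones in which members and all starts differed most. These words were chosen after their values were seen, as the 5 with the largest difference among all 6-base words within 50 bp of the summit. CGAGCG, on either strand, was at 82 member summits (16.4%), against 6.1% of upstream summits and 6.09% of all starts. CGCAGC was at 16.8% of member summits, 9.08% of upstream summits and 7.13% of all starts. CCGCTC was at 14%, 5.95% and 5.17%, CGAACG at 14.4%, 5.01% and 6.28%, and GCGAGC at 13.4%, 6.89% and 5.53% in the same order. With windows of all starts moved downstream by 52 bp the shares were 5.26%, 6.36%, 4.23%, 5.97% and 4.88%. TATCGA, which lies within the DRE, was at 12% of member summits, 46.6% of upstream summits, 13% of all starts and 5.63% of the moved windows.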
